A study of Mus musculus with 50 samples.

Results

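Oxidative phosphorylation is carried out by 5 enzyme complexes of the inner mitochondrial membrane, and their genes were followed here in blood stem and progenitor cells of mice with a mutant Flt3 allele. The members were the genes of 2 deposited count tables whose symbol begins with Nduf, Uqcr, Cox4i, Cox5, Cox6, Cox7, Cox8 or Atp5, the genes Sdha to Sdhd and Cycs, and every protein-coding gene whose symbol begins with mt-. Symbols ending in -ps, which mark pseudogenes, were left out. The rule found 104 members among 33924 genes, of which 91 are encoded in the nucleus and 13 in the mitochondrial genome. The rule uses names only, so it holds genes that are not subunits (4 assembly factors named Ndufaf, for example), and it misses subunits named otherwise.

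Each sample was a bulk RNA-seq library of sorted bone marrow cells. LSK cells (lineage negative, Sca1+, Kit+) contain the stem cells and the earliest progenitors, and GMP are granulomyeloid progenitors. The first table held LSK and GMP libraries from mice with mutant Flt3 alone at 2, 4, 6 and 8 weeks (3 of each type per time) and from wild-type mice (WT) at 4 weeks (3 of each). The second held LSK and GMP libraries from mice with mutant Npm1 and Flt3 (4 of each) and mutant Dnmt3a and Flt3 (3 of each). It also held lineage-negative stem and progenitor cells (Lin- HSPCs) of Npm1 Flt3 mice given tamoxifen (TAM), which deletes the mutant Flt3 allele, or vehicle for 7 days (3 of each). Per the labels, the mutations were switched on by Cre, Dre or Flp recombinase, mice were killed at a set time or when symptomatic, cells went into Trizol, and a paired-end or a single-end 3' kit was used. Which recombinase and which kit served which sample is not given in the sources used here, nor are age and sex. The sample codes of all Flt3-only mice belonged to one series and those of all WT mice to another, so the genotype cannot be told apart from the series of codes. WT mice were sampled at 4 weeks only, and no single-mutant Npm1 or Dnmt3a group and no WT group stood in the second table.

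Library totals were 306571 to 8249135 counts in 29 libraries of the first table and 15053592 to 128057407 in the 20 of the second. A GMP library from 8 weeks (replicate 2) held 1942 counts and was left out. The 2 Dnmt3a Flt3 libraries whose labels contradict each other on the cell type (LSK replicate 1 and GMP replicate 2) entered no test. Their summed GMP markers (3270 and 48900 CPM) went with their titles. Grouped by title, these markers were at 3270 to 4040 CPM in Dnmt3a Flt3 LSK and 48900 to 61700 CPM in Dnmt3a Flt3 GMP. Summed LSK markers were at 2440 to 2590 CPM and 1630 to 1700 CPM, also without overlap. Counts of calls with these libraries kept as titled are given below. The 8-week Flt3 libraries GMP 3, LSK 2 and LSK 3 carried 0.428%, 0.52% and 0.377% of their counts in mitochondrial members, against a median of 0.224% in Flt3 GMP. Flt3 itself lay between 16.8 and 28.2 CPM (counts scaled to a library total of 1000000) in WT GMP and between 106 and 173 CPM in Flt3 GMP. After TAM it was at 83.3 to 183 CPM against 160 to 209 CPM after vehicle, and the labels do not give which part of the gene is deleted. The GMP and LSK sorts matched their markers in WT mice: 8 GMP genes summed to 46400 to 56900 CPM in WT GMP and 10 LSK genes to 1890 to 2110 CPM in WT LSK, against 638 to 749 CPM in WT GMP. WT LSK also held 331 to 2140 CPM of 8 macrophage genes, against 12.9 to 58.8 CPM in Flt3 LSK. Sums of 8 erythroid genes were 1520 to 1850 CPM in WT LSK and 94.6 to 407 CPM in Flt3 LSK. Those of 6 megakaryocyte genes were 725 to 1110 CPM and 9.79 to 186 CPM. The part of these cells in comparisons with WT LSK was not tested. The 8 GMP genes summed to 15000 to 32300 CPM in Flt3 GMP, below every WT library. At 2 weeks, Flt3 GMP also held 57500 to 70800 CPM of 8 basophil and mast cell genes, against 1300 to 1620 CPM in WT GMP. The sum of 9 dendritic cell genes was 22700 to 34900 CPM in Flt3 GMP at 2 weeks and 927 to 4770 CPM later, against 102 to 133 CPM in WT GMP, where Cd209a was at 0.

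Complex I takes electrons from NADH, complex II (succinate dehydrogenase) takes them from succinate, and both pass them to complex III. Cytochrome c carries them on to complex IV, cytochrome c oxidase, which reduces oxygen, and the proton gradient so built drives ATP synthase. Complexes I, III and IV and ATP synthase contain subunits from both genomes, while complex II is wholly nuclear. Long-term blood stem cells are known for a low reliance on respiration, which rises as progenitors differentiate. By complex, the nuclear members were 36 subunits of complex I, 4 complex I assembly factors, 4 of complex II, 8 of complex III, cytochrome c, 20 of complex IV and 18 named for ATP synthase. The 18 were taken by symbol and include Atp5l2, which GENCODE annotates as a processed pseudogene although its symbol here lacks -ps, and Atp5sl, now named Dmac2 and known as a complex I assembly factor. Of the ATP synthase counts below, Atp5l2 is among the lower genes only in WT LSK against GMP and Atp5sl only after TAM. Ndufa4 was counted with complex IV, where its protein sits despite its name. The mitochondrial members were 7 of complex I, 1 of complex III, 3 of complex IV and 2 of ATP synthase.

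How far the mitochondrial members can be counted depends on copies of mitochondrial DNA in the nuclear genome. Over 50 libraries, mt-Atp6, mt-Atp8, mt-Co3 and mt-Nd4l had 0 counts, mt-Co2 had 5 and mt-Nd3 had 794. The other 7 ranged from 145434 counts (mt-Nd6) to 4300388 (mt-Co1). In the GENCODE transcripts of GRCm38, the share of 50-letter words of each gene that also occurs in a nuclear-encoded transcript was 100% for mt-Co2, 99.9% for mt-Co3, 99.5% for mt-Atp6, 98.8% for mt-Nd4l and 98.0% for mt-Nd3. It was 62.2% for mt-Nd4, 51.1% for mt-Co1, 8.19% for mt-Nd2, 7.61% for mt-Nd5 and 0 for mt-Nd1, mt-Nd6, mt-Cytb and mt-Atp8. Thus 5 of the 6 nearly empty genes were those with the most shared sequence, and mt-Atp8 was at 0 without any shared with an annotated transcript. The search covered annotated transcripts only. The gene mt-Atp8 (chrM:7766-7969) lies next to mt-Co2 and overlaps mt-Atp6, whose annotated copies are Gm28661 (chr1:24614885-24615565) and Gm10925 (chr1:24613974-24614651). The stretch between these copies was not searched, so a copy of mt-Atp8 there could not be seen. How reads with several matching places were counted is not given in the sources used here, so which part of mt-Co1 and mt-Nd4 their levels rest on is not known. The whole of mt-Nd4l (chrM:9877-10173) and the first 90 bases of mt-Nd3 (chrM:9459-9806) and of the nuclear copy of the latter, Gm28438 (chr1:24612775-24613119, minus strand), show how close the copies are. The nuclear copy of mt-Nd4l, Gm10222 (chr1:24612407-24612700, minus strand), is identical over all its 294 bases, and Gm28438 has 344 of 345 bases in common with mt-Nd3, the difference being T3C, counted from the first base and given in capitals.
mt-Nd4l: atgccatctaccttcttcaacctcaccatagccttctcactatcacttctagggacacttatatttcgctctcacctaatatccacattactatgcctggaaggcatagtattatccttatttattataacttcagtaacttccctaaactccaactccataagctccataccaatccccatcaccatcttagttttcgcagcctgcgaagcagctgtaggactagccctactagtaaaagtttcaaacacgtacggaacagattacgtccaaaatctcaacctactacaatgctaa
mt-Nd3: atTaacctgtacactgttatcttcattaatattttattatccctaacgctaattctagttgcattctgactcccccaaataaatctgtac
Gm28438: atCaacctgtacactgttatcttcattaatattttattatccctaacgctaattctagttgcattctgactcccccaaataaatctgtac

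Promoters of 75 of the 91 nuclear members were matched in RefSeq (GRCm38.p6), as the 250 bases before to 50 after the start. They were searched on both strands for the words of 3 factors with known roles at respiratory genes: GCGCA, any base and GCGC (NRF1), CCGGAAG (ETS factors such as GABP) and AAGATGGC (YY1). The NRF1 word stood in 18 of the 75 (24.0%, against 5.19% of 27025 promoters), the ETS word in 17 (22.7% against 9.93%) and the YY1 word in 11 (14.7% against 3.19%). At least 1 word stood in 40 members (53.3% against 16.4%), and the members' promoters were also richer in G and C (median 58.3% against 52.8%). The 200 bases before the start of Atp5h (chr11:115419920-115420119), Atp5j (chr16:84834977-84835176), Cox6a1 (chr5:115348959-115349158) and Sdhd (chr9:50603850-50604049), all on the minus strand, show the words in capitals in genes that were lower in Flt3 GMP; Atp5h and Atp5j were chosen after their values were seen. The genes shown were picked for holding at least 2 of the 3 words in these 200 bases. RefSeq gives Atp5j 2 starts, of which 1 is shown. The promoter window of the other (chr16:84835576-84835875) holds none of the words. The ETS word is on the opposite strand in Atp5h, Cox6a1 and Sdhd and reads CTTCCGG there.
Atp5h: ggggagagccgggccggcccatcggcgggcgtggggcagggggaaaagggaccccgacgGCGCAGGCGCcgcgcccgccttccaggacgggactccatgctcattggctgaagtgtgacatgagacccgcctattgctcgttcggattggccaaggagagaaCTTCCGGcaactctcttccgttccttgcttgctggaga
Atp5j: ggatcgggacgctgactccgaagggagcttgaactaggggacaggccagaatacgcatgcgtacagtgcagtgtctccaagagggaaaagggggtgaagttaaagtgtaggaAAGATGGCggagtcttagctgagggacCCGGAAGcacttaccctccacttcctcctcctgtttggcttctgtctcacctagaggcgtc
Cox6a1: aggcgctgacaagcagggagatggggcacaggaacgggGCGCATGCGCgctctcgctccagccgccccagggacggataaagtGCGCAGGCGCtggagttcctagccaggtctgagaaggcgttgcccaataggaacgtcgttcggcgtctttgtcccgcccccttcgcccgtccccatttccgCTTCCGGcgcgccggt
Sdhd: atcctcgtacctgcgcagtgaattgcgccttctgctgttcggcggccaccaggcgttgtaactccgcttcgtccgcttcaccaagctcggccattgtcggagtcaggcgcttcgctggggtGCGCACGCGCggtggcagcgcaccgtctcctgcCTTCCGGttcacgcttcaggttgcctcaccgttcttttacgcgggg

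In the 3 WT GMP libraries the nuclear members together made up 4.94% to 5.59% of counts, more than in any other library of the first table. In Flt3 GMP they took 3.19% to 3.54% at 2 weeks and 3.86% to 4.51% from 4 to 8 weeks, so no Flt3 library reached the WT range. In LSK the genotypes overlapped, at 3.85% to 4.11% in WT and 3.48% to 4.21% in Flt3 mice. The mitochondrial members made up 0.321% to 0.402% in the former and, in Flt3 GMP, 0.206% to 0.428%, where the 8-week replicate 3 was the highest and lay above the WT range. In LSK they took 0.233% to 0.386% in WT and 0.212% to 0.52% in Flt3 mice. In bulk samples such as these, fewer cells that express a gene and less of its RNA per cell cannot be told apart.

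**Figure D1:**
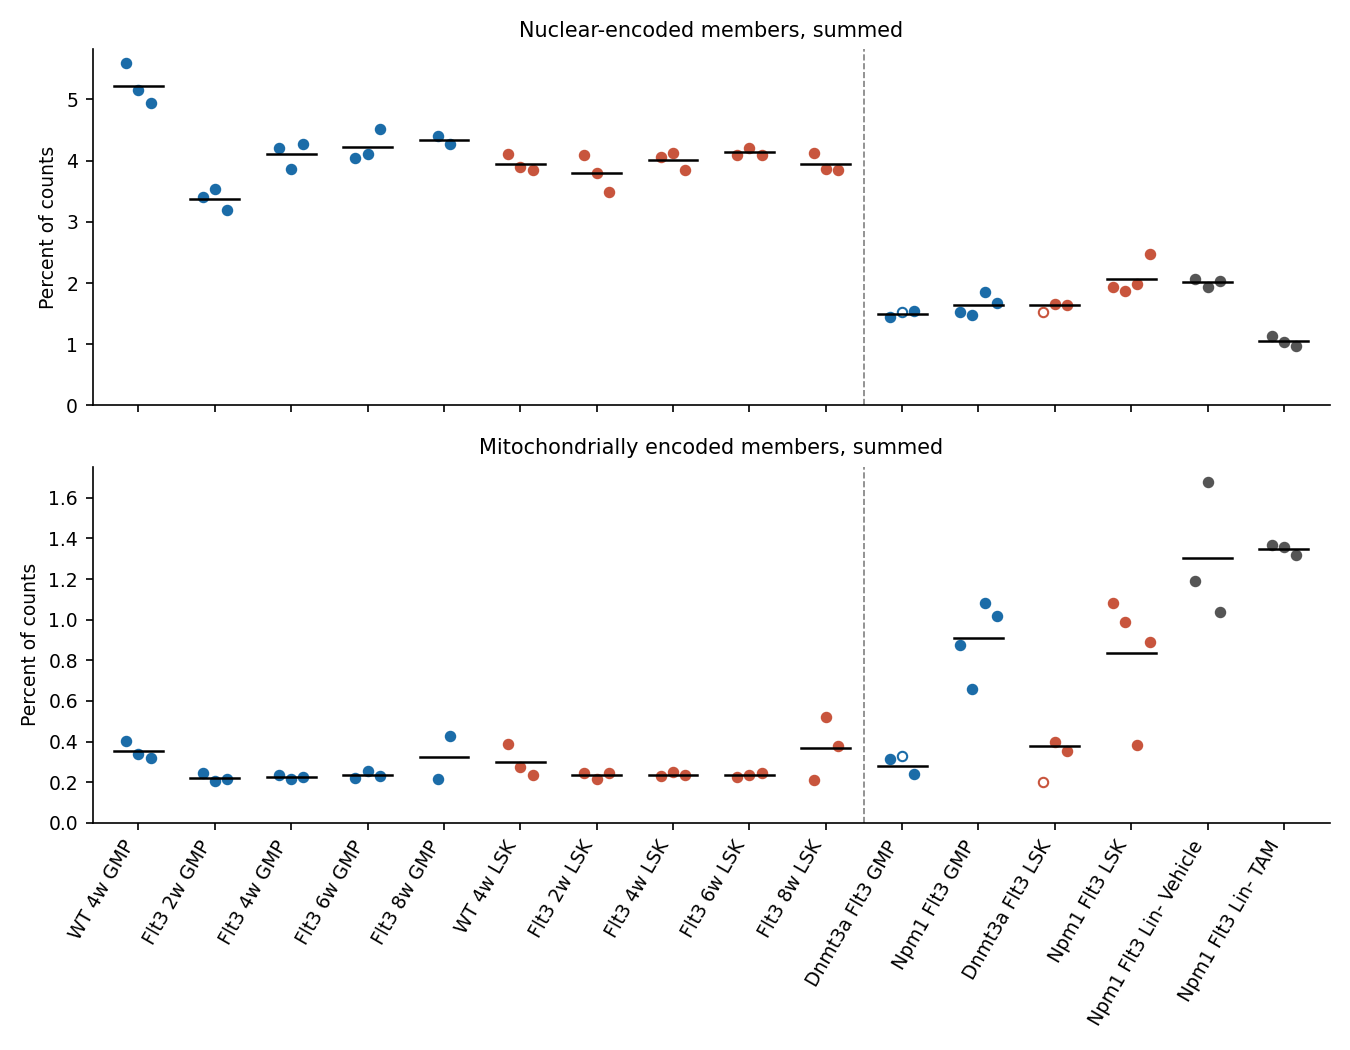
Percent of each library's counts in the 91 nuclear members (upper) and the 13 mitochondrial members (lower), 1 point per library, with the group mean as a line; open points are the 2 libraries with contradictory labels, left out of the mean, and the dashed line separates the 2 tables. WT GMP is highest among GMP and LSK of the first table for nuclear members, at 4.94% to 5.59%, and TAM is lowest in the second, at 0.972% to 1.14%.

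The first comparison asked what the Flt3 mutation changes in GMP, over all 4 times. Oxidative phosphorylation genes were lower in Flt3 GMP across every complex. Of 86 nuclear members tested, 66 were lower and 1 was higher at an adjusted p under 0.05 (edgeR's quasi-likelihood test, Benjamini-Hochberg adjustment over all genes), where 13.3% of 9602 genes tested were lower and 11.7% were higher. The median log2 fold change of the nuclear members was -0.50, against 0.04 over all genes. The lower members were 31 of 36 in complex I, 2 of 4 assembly factors, 3 of 4 in complex II, 7 of 8 in complex III, cytochrome c, 11 of 15 in complex IV and 11 of 18 in ATP synthase. The members not tested for low counts were Cox7a1, Cox7b2, Cox8b, Cox8c and Ndufa4l2. With library size as the only scaling, the higher share of all calls moved from 46.9% to 65.2%, the median of all genes moved to 0.18, and 51 nuclear members were lower and 1 higher. The count of called nuclear members was lowest without WT GMP replicate 1, at 50, and was 55 when the 4-week Flt3 group alone was set against WT, which was sampled at that time.

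The gene with the smallest p was Ndufa4 (chr6:11900292-11907497), a subunit of complex IV. It stood at 2900, 2380 and 2110 CPM in WT GMP and between 918 and 1360 CPM in 11 Flt3 GMP libraries (median 1120). Every Flt3 library was below every WT library, and the log2 fold change was -1.20 ± 0.10 (SE; adjusted p = 6.63e-11 by edgeR). Cox7a2, a small subunit of complex IV, stood at 999, 897 and 880 CPM in WT and 482 to 662 CPM in Flt3 GMP (log2 fold change -0.84 ± 0.10, edgeR adjusted p = 8.57e-08). Uqcrq, a small subunit of complex III, was at 1020, 964 and 805 CPM in WT and 513 to 706 CPM in Flt3 GMP (-0.78 ± 0.10, edgeR adjusted p = 2.26e-07). For neither did the genotypes overlap. Cycs, cytochrome c itself, was at 279, 260 and 237 CPM in WT and 146 to 201 CPM in Flt3 GMP, again without overlap (-0.71 ± 0.12, edgeR adjusted p = 1.85e-05). Cox7b and Ndufa1, small subunits of complexes IV and I, were the other members of the 5 smallest p-values, at -0.75 ± 0.10 and -0.82 ± 0.11.

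Of 8 core subunits fixed for naming, 5 were lower in Flt3 GMP and 3 were not called. Uqcrc1, a core protein of complex III, fell by 0.55 on the log2 scale, Atp5b, the catalytic subunit of ATP synthase, by 0.45, and Cox5b and Cox5a of complex IV by 0.40 and 0.43. The flavoprotein subunit of complex I, Ndufv1, fell by 0.39. Ndufs1, its large iron-sulfur subunit, had a log2 fold change of -0.10 ± 0.15 (edgeR adjusted p = 0.697), Atp5a1 of ATP synthase -0.18 ± 0.09 (0.172) and Uqcrfs1, the Rieske iron-sulfur protein, -0.22 ± 0.11 (0.156). In complex II, the membrane anchors Sdhd and Sdhc fell by 0.54 and 0.37 and the iron-sulfur subunit Sdhb by 0.35, while the flavoprotein Sdha had a value of 0.03 ± 0.10 (0.850). Several of these were low mainly at 2 weeks. Sdhb was at 347, 331 and 307 CPM in WT GMP, at 200, 217 and 210 CPM in Flt3 GMP at 2 weeks, and at 278 to 352 CPM from 4 to 8 weeks, where it overlapped WT. Ndufs1 was at 95.6, 110 and 85.8 CPM in WT, at 87.3, 74.4 and 41.6 CPM at 2 weeks and at 96.1 to 130 CPM later. Ndufa4, Cox7a2 and Cycs stayed below WT at every time. The 2-week libraries are those with the basophil and mast cell genes. Without them, 66 nuclear and 4 mitochondrial members were called, against 67 and 4 with them.

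Isoforms of the same subunit differed in whether they were called. No test between isoforms was made, and a low gene can miss a call through its wide error, so a call does not show that isoforms differ. Cox4i1, the common form of complex IV subunit 4, was lower (1960, 1660 and 1750 CPM in WT and 891 to 1700 CPM in Flt3 GMP; log2 fold change -0.49 ± 0.11, edgeR adjusted p = 0.000723). Its counterpart Cox4i2 (chr2:152754173-152765037), known for its use in lung and under low oxygen, was the 1 higher member. Cox4i2 stood at 0.985, 0 and 0 CPM in WT GMP. In Flt3 GMP it was at 0, 1.09 and 0 CPM at 2 weeks, 3.61, 7.36 and 1.75 at 4 weeks, 9.08, 4.53 and 8.75 at 6 weeks and 11.1 and 9.23 at 8 weeks. All 8 libraries from 4 weeks on were above every WT library, and those of 2 weeks overlapped WT. Summed, this was 75 counts of 19397996 against 1 of 4514948, a ratio of 17.5 (95% exact interval 3.04 to 699, counting error only). The fitted change of 3.65 ± 1.12 (edgeR adjusted p = 0.0141) was lost without Flt3 2-week replicate 3 (adjusted p = 0.999), WT replicate 2 (0.105) or WT replicate 3 (0.0705). Cox6a1, Cox6b1 and Cox8a were lower, by 0.37, 0.63 and 0.37. Their tissue-restricted counterparts Cox6a2 and Cox6b2 were not called (-0.61 ± 0.55 and -0.22), nor was Cox7a2l (-0.34, adjusted p = 0.111). Cox8b and Ndufa4l2 were at or near 0. Of the 3 genes for subunit c of ATP synthase, Atp5g1 and Atp5g3 fell by 0.55 and 0.52, and Atp5g2, at 1.6 to 18.1 CPM over the first table, was not called (-0.37).

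Of 7 mitochondrial members tested in GMP, 4 were lower and none higher, with a median of -0.49. mt-Nd1 (chrM:2751-3707), a core subunit of complex I, was at 1200, 1130 and 977 CPM in WT GMP and 528 to 1090 CPM in Flt3 GMP, where 10 of 11 libraries lay below WT (-0.82 ± 0.13, edgeR adjusted p = 5.06e-05). mt-Cytb, the mitochondrial subunit of complex III, was at 1810, 1290 and 1270 CPM in WT and 767 to 1400 CPM in Flt3 GMP (-0.71 ± 0.12, 7.4e-05 by edgeR). mt-Co1, the catalytic subunit of complex IV, was at 138, 105 and 91.2 CPM and 41.9 to 101 CPM (-0.86 ± 0.19, 0.00148 by edgeR), and mt-Nd2 was lower by less (-0.46 ± 0.15, 0.0255). The groups of the last 3 overlapped in part. mt-Nd4 (-0.49 ± 0.24, edgeR adjusted p = 0.178), mt-Nd6 (-0.18 ± 0.20) and mt-Nd5 (-0.04 ± 0.26) were not called, and mt-Nd3 was too low to test. The ratio of mitochondrial to nuclear member counts was 0.0649 to 0.0719 in WT GMP, and it spread from 0.0487 to 0.1 in Flt3 GMP.

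Other mitochondrial gene lists were read beside the members. Of 73 genes for mitochondrial ribosomal proteins tested, 42 were lower and none higher in Flt3 GMP (23 lower by library size alone), led by Mrps28 (-0.89 ± 0.11). In the citric acid cycle and pyruvate dehydrogenase, which supply the electrons, 4 of 17 genes were lower, with Pdhb at -0.75 ± 0.12. Among 31 assembly factors of the complexes 5 were lower and 1 higher, where 13.3% of all genes tested were lower and 11.7% higher. The copper chaperone Cox17, which serves complex IV, fell by 0.49. Of 20 genes for mitochondrial DNA expression 2 were lower, against the same background. None of the 8 nuclear regulators of the pathway tested (Nrf1, Gabpa and Yy1 among them) was called by edgeR, with 1 at an unadjusted p under 0.05, and DESeq2 called 0. Cytosolic ribosomal protein genes made up 6.6% to 8.32% of WT GMP counts but 3.95% to 6.12% of Flt3 GMP counts. Members whose promoter holds at least 1 of the 3 words were lower in 32 of 40 cases (median -0.522), and those with none in 26 of 32 (median -0.514). The genes printed above gave -0.53 ± 0.09 for Atp5h, -0.58 ± 0.10 for Atp5j, -0.37 ± 0.10 for Cox6a1 and -0.54 ± 0.10 for Sdhd. The summed GMP markers fell with the members in Flt3 GMP, and the part of the cells sorted, of the ribosomal genes or of the basophil and dendritic genes in the result was not tested beyond the counts without 2 weeks.

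The same comparison in LSK gave a different picture. Of 84 nuclear members tested in LSK, 5 were higher and 1 lower in Flt3 mice (5.95% and 1.19%), where 6.89% of 9892 genes were higher and 8.07% lower, and 20 had an unadjusted p under 0.05. The median was 0.13, against -0.005 over all genes, and 68 of the 84 values were positive. Ndufa4 was the lower one, as in GMP: 1730, 1730 and 1710 CPM in WT LSK and 814 to 1190 CPM in 12 Flt3 LSK libraries, without overlap (log2 fold change -0.62 ± 0.09, edgeR adjusted p = 1.24e-05). Higher were Ndufs6 (0.42 ± 0.10) and Ndufb5 (0.37 ± 0.10) of complex I, the assembly factor Ndufaf1 (0.49 ± 0.16), Atp5j2 of ATP synthase (0.33 ± 0.10) and Cox4i1. Cox4i1 was at 1290, 1160 and 950 CPM in WT LSK and 1080 to 1610 CPM in Flt3 LSK, which overlapped (0.43 ± 0.11, edgeR adjusted p = 0.00731). Cycs had a value of 0.34 ± 0.13 (adjusted p = 0.0675 by edgeR). Scaled by library size alone, none was higher and 3 were lower, the higher share of all calls moved from 46.1% to 30.1% and the median of all genes to -0.12. The 5 higher members lost their calls there but not their direction, and their mean CPM was higher in Flt3 LSK (336.4 against 269.7 for Ndufs6, for example). Without WT LSK replicate 2 or 3, 2 and 3 nuclear members were called. Flt3 LSK at 2 weeks held 26100 to 76900 CPM of 9 plasma and lymphoid cell genes, against 871 to 2570 CPM in WT LSK. The 9 dendritic cell genes summed to 13900 to 25500 CPM in Flt3 LSK at 2 weeks and 1950 to 14400 CPM later. In WT LSK they summed to 319 to 617 CPM. The part of these cells in the LSK values and in the interaction below was not tested.

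Cox4i2 in LSK was at 0.702, 0 and 0 CPM in WT and, in Flt3 mice, at 1.21, 0.723 and 1.83 CPM at 2 weeks, 3.34, 6.55 and 7.92 at 4 weeks, 5.61, 3.22 and 5.49 at 6 weeks and 6.44, 2.37 and 0 at 8 weeks. Of the 12 Flt3 libraries only the shallowest, 8-week replicate 3, was within the WT range. Summed, this was 86 counts of 18060171 against 2 of 6261996, a ratio of 14.9 (95% exact interval 4.0 to 125, counting error only). The gene was too low in LSK to enter the fit. No mitochondrial member was called of 7 (0 at an unadjusted p under 0.05 by edgeR, and 0 called by DESeq2), with fold changes of -0.17 to -0.01. Among the other lists, mitochondrial ribosomal proteins were higher in 4 and lower in 1 of 73 genes. Of the 8 regulators, Gabpb1 (-0.55 ± 0.16) and Myc (-0.28 ± 0.09) were lower. Over all genes tested in LSK, 6.89% were higher and 8.07% lower.

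**Figure D2:**
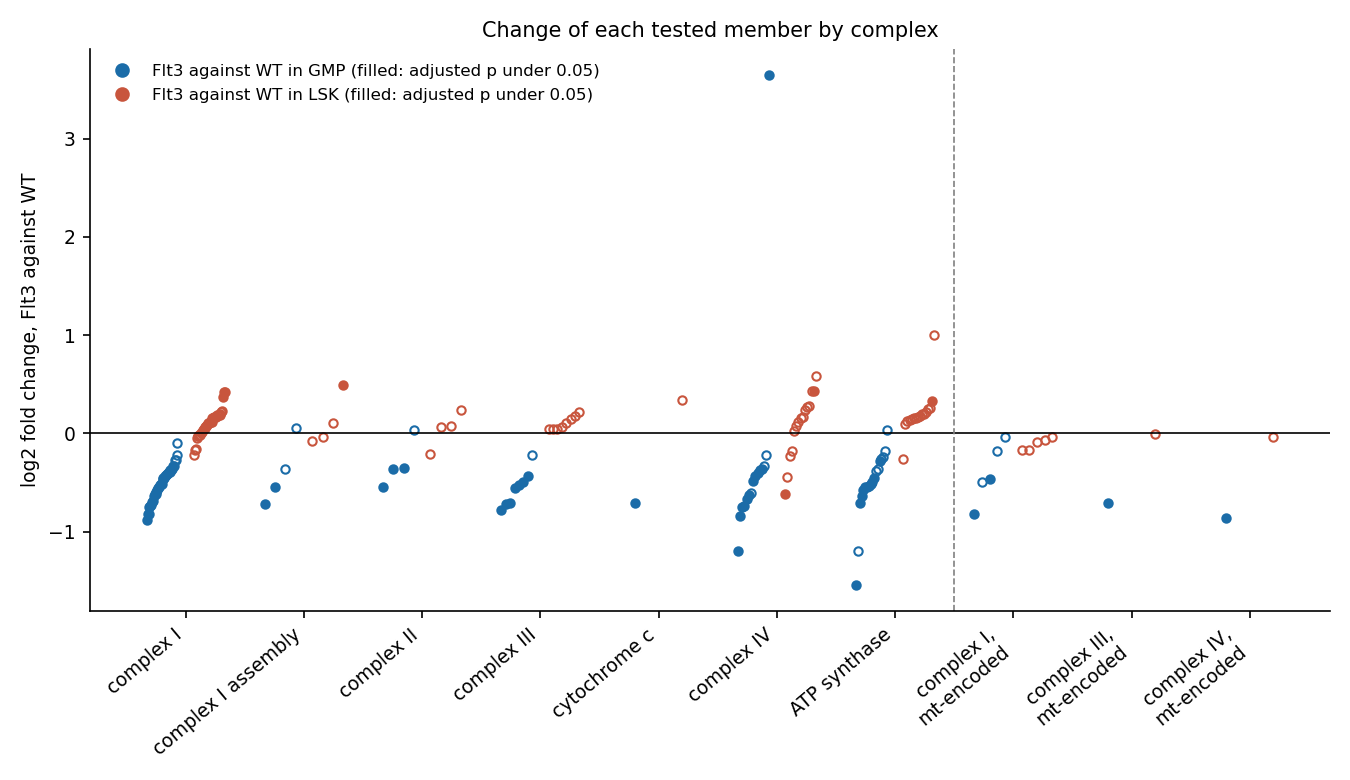
Log2 fold change of each tested member, Flt3 against WT, by complex, in GMP (blue) and LSK (red); filled points passed an adjusted p under 0.05 and the dashed line separates nuclear from mitochondrial members. Most GMP points lie below 0 in every nuclear complex (31 of 36 called lower in complex I), and LSK points lie around 0 with Ndufa4 of complex IV lowest at -0.62.

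Whether the effect of Flt3 differed between the cell types was tested as an interaction, the Flt3 minus WT change in LSK minus that in GMP. It was positive for 84 of 87 nuclear members, and 61 were called higher and none lower, where 7.00% of 10619 genes were higher and 5.55% lower. The median was 0.60, against -0.11 over all genes. By complex, 26 of 36 members of complex I, 8 of 8 of complex III, 11 of 16 of complex IV and 12 of 18 of ATP synthase were called. Cytochrome c, 2 of 4 members of complex II and 1 of 4 assembly factors were called too. The 5 smallest p-values belonged to Cox7b (1.03 ± 0.14, edgeR adjusted p = 1.11e-06), Cox7a2 (0.95 ± 0.14), Uqcrq (0.96 ± 0.15), Ndufb5 (0.98 ± 0.15) and Cycs (1.05 ± 0.17). Of 7 mitochondrial members 1 was called, mt-Nd1 (0.73 ± 0.23). Of the mitochondrial ribosome 37 genes were higher and none lower of 74 (16 and 1 by library size alone), while Myc was the 1 regulator called (-0.48 ± 0.15). With library size alone 26 nuclear members and no mitochondrial member were called, the share of higher calls moved from 55.8% to 18.6% and the median of all genes to -0.35. With the 4-week Flt3 mice alone 33 were called.

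In WT mice the members separated the 2 cell types. This contrast, Flt3 against WT in GMP and the interaction all use the same WT GMP libraries, so they are not separate results. Their counts of called nuclear members were lowest without WT GMP replicate 1, at 64, 50 and 42. Of 87 nuclear members, 72 were lower and 1 higher in LSK than in GMP, where 13.6% of 10619 genes were lower and 15.5% higher. The median was -0.74, against 0.13 over all genes. The lower members were 34 of 36 in complex I, 8 of 8 in complex III, 11 of 16 in complex IV, 14 of 18 in ATP synthase, 2 of 4 in complex II, 2 of 4 assembly factors and cytochrome c. Cycs was at 279, 260 and 237 CPM in WT GMP and at 115, 108 and 127 CPM in WT LSK (log2 fold change -1.48 ± 0.15, edgeR adjusted p = 1.59e-10). Uqcrq was at 533, 537 and 449 CPM in WT LSK against at least 805 in WT GMP (-1.22 ± 0.13), and Cox7a2 at 552, 555 and 426 CPM against at least 880 (-1.20 ± 0.13). None of these 3 overlapped. Cox7b and Ndufb11 completed the 5 smallest p-values, at -1.14 ± 0.12 and -0.96 ± 0.12. Cox4i1 (-1.01 ± 0.14) and Ndufa4 (-0.86 ± 0.13) were lower as well, while Ndufs1 (-0.05), Sdha (-0.08) and Sdhc (-0.29, adjusted p = 0.0937) were not called.

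Cox6a2 (chr7:128205435-128206387), the heart and muscle form of a complex IV subunit, went the other way. It stood at 2.96, 5.48 and 7.38 CPM in WT GMP and at 20.7, 16.1 and 16.1 CPM in WT LSK, without overlap (1.37 ± 0.50, edgeR adjusted p = 0.0335). The call was lost without WT GMP replicate 1 or 2 or WT LSK replicate 1 or 3 (adjusted p between 0.0521 and 0.123). Of the mitochondrial members mt-Nd1 (-0.83 ± 0.21) and mt-Cytb (-0.67 ± 0.22) were lower in LSK, with a median of -0.30 over 7, and 1 was left without WT GMP 1, LSK 2 or LSK 3. Mitochondrial ribosomal proteins were lower in 50 and higher in 1 of 74 genes (24 and 1 by library size alone). Of the 17 genes of the citric acid cycle list 8 were lower (1 lower and 1 higher by library size alone). Of the 9 regulators listed, Gabpb1 (0.78 ± 0.23), Yy1 (0.98) and Pprc1 (0.68) were higher in LSK. Over all genes tested, 15.5% were higher and 13.6% lower. The scaling mattered here: by library size alone the higher share of all calls moved from 53.3% to 83%, the median of all genes to 0.46, and 43 nuclear members were lower (median -0.39) and 1 higher, with no mitochondrial member called. Atp5a1, lower by 0.28 ± 0.11 under the main scaling, then had a value of 0.07.

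In Flt3 mice the same contrast was smaller. Of 87 nuclear members 17 were lower and 2 higher in LSK, where 8.95% of genes were lower and 8.67% higher, and the median was -0.10, against 0.01 over all genes. The WT and Flt3 contrasts were fitted together and share no library, and their difference is the interaction above. Cycs was at 146 to 201 CPM in Flt3 GMP (median 181, n = 11) and from 108 CPM upward in Flt3 LSK (median 140, n = 12) (-0.43 ± 0.08, edgeR adjusted p = 3.98e-05). Ndufa4 (-0.28 ± 0.07), Ndufa1 (-0.29), Ndufb11 (-0.26) and Cox7a2 (-0.25 ± 0.07) were also lower. The cell types overlapped for Cycs, Ndufa4, Ndufa1 and Cox7a2. Higher were Ndufaf1 (0.33 ± 0.11) and Cox6a2 (1.74 ± 0.30, edgeR adjusted p = 1.08e-05). Without the 2-week libraries Cox6a2 had a value of 0.75 (adjusted p = 0.152). No mitochondrial member was called by edgeR (1 at an unadjusted p under 0.05), and DESeq2 called 1 higher. Under library size alone 2 nuclear members were lower and 2 higher, and the share of higher calls moved from 49.2% to 68.5% and the median of all genes to 0.11. Mitochondrial ribosomal proteins were lower in 2 and higher in 1 of 74 genes.

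Time, in weeks as the labels give it, was fitted as a slope per week within Flt3 mice. In GMP 3 of 85 nuclear members rose and none fell, where 3.33% of 9372 genes rose and 8.91% fell. They were Cox4i2 (0.53 ± 0.14 log2 per week, edgeR adjusted p = 0.0169), Atp5a1 (0.07 ± 0.02, 0.0361) and Ndufab1 (0.11 ± 0.03, 0.0445), the acyl carrier subunit of complex I. Ndufab1 stood at 183, 155 and 171 CPM at 2 weeks and at 341 and 379 CPM in the 2 usable 8-week libraries. None of the 3 was left without the 2-week libraries, and none without Flt3 2-week GMP replicate 1 or 3 or 6-week replicate 1 or 3. Without TMM, by library size alone, 14 nuclear members and 1 mitochondrial member rose, with the share of rising calls moving from 27.2% to 66.2%. In LSK 1 of 84 nuclear members was called, Cox6a2, which fell by 0.32 ± 0.08 per week (edgeR adjusted p = 0.0349), against a background of 1.98% falling and 0.722% rising. It was at 24.2, 36.9 and 19.2 CPM at 2 weeks and 7.19, 4.74 and 6.52 CPM at 8 weeks, and from 4 to 6 weeks at 8.02 to 23.8 CPM. It had an adjusted p of 0.789 without 2 weeks and 0.0614 by library size alone, where the share of rising calls was 63.3% and not 26.7%. At 2 weeks, Flt3 LSK also held 26100 to 76900 CPM of 9 plasma and lymphoid cell genes, against 871 to 2570 CPM in WT LSK, and their part in the slope was not tested. No mitochondrial member had a called slope in GMP (0 of 7 at an unadjusted p under 0.05) or LSK (1 of 7), and DESeq2 called 0 in both.

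**Figure D3:**
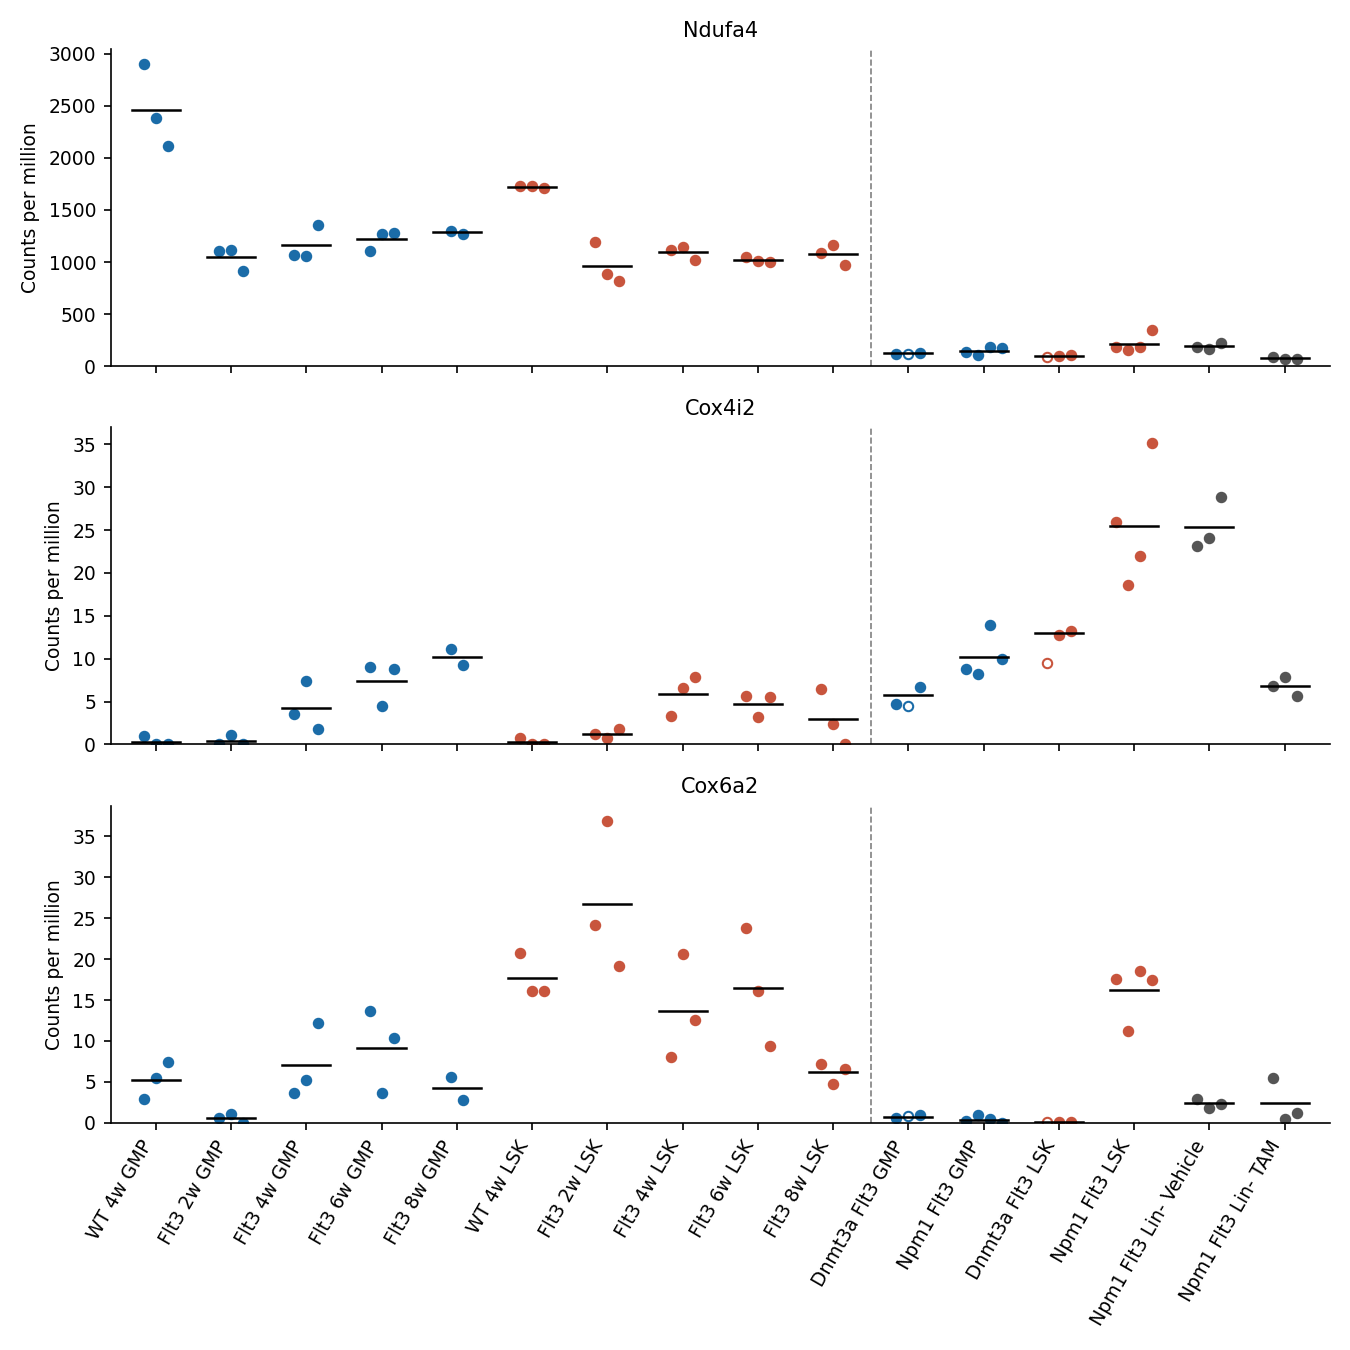
CPM of Ndufa4, Cox4i2 and Cox6a2 in each library, with group means as lines; blue is GMP, red is LSK, grey is Lin- HSPCs, open points are the 2 libraries with contradictory labels, and the dashed line separates the 2 tables. Ndufa4 was at 2110 to 2900 CPM in WT GMP and at most 1360 in Flt3 GMP, Cox4i2 was near 0 in WT, and Cox6a2 was at 11.2 to 18.6 CPM in Npm1 Flt3 LSK and under 1 in Dnmt3a Flt3 libraries.

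The second table set Npm1 Flt3 against Dnmt3a Flt3 mice, with 4 against 2 libraries in each cell type after the contradictory ones were left out. Here too the sample codes of each genotype belonged to a series of their own, so the genotype cannot be told apart from the series of codes. In LSK 6 of 89 nuclear members were higher in Npm1 Flt3 and none lower, where 7.80% of 19470 genes were higher and 3.76% lower. Without adjustment 54 had a p under 0.05, and the median was 0.83 against -0.004 over all genes. Cox6a2 was at 17.6, 11.2, 18.6 and 17.4 CPM in Npm1 Flt3 LSK and at 0.125 and 0.107 CPM in Dnmt3a Flt3 LSK (log2 fold change 7.16 ± 0.67, edgeR adjusted p = 0.000549). Atp5g3, a gene for subunit c of ATP synthase, was at 439, 376, 384 and 548 CPM against 185 and 181 CPM (1.31 ± 0.29, edgeR adjusted p = 0.0177). Uqcrq was at 208, 144, 214 and 306 CPM against 96.3 and 95.6 CPM (1.25 ± 0.36, edgeR adjusted p = 0.04998, just under the threshold). Neither Atp5g3, Uqcrq nor Cox6a2 overlapped. The other called members were Uqcr11 (1.27 ± 0.32), Ndufa2 (1.33 ± 0.35) and Cox6a1 (1.24 ± 0.34). Sdha, the flavoprotein of complex II, was at 464, 703, 615 and 442 CPM in Npm1 Flt3 LSK and at 949 and 1040 CPM in Dnmt3a Flt3 LSK (-0.80 ± 0.26, edgeR adjusted p = 0.0772, so not called). The count of nuclear members moved with nearly every setting. It was 1 without Dnmt3a Flt3 LSK replicate 2 or 3, 2 without Npm1 Flt3 LSK 1, 26 without Npm1 Flt3 LSK 2, 35 by DESeq2 and 41 with the contradictory library kept as titled.

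In GMP 3 of 88 nuclear members were higher in Npm1 Flt3 and 1 was lower, below the background of 12.5% of 17200 genes higher and 8.22% lower. The median was 0.42 against 0.06 over all genes, and 32 had an unadjusted p under 0.05. Atp5g3 was higher here too, at 303, 268, 429 and 317 CPM against a mean of 161 ± 15.0 CPM (SD, n = 2) (0.99 ± 0.21, edgeR adjusted p = 0.0161), as was Cox6a1, at 191, 168, 226 and 213 CPM against 111 and 134 CPM (0.66 ± 0.18, 0.0355 by edgeR). Neither overlapped. Ndufa6 was higher (0.76 ± 0.22) and Ndufaf1 lower (-0.66 ± 0.20). No nuclear member was called without Dnmt3a Flt3 GMP 1 or 3, 1 was without Npm1 Flt3 GMP 1, 3 or 4, 22 were without Npm1 Flt3 GMP 2, 15 were by DESeq2 and 35 with the contradictory library kept. The mitochondrial ribosome, read beside these, had 3 of 75 genes higher in LSK and 1 higher and 2 lower in GMP. The citric acid cycle list had 2 of 17 lower in LSK and 3 lower in GMP. Over all genes tested, 7.80% were higher and 3.76% lower in LSK, and 12.5% and 8.22% in GMP.

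Among mitochondrial members the 2 genotypes differed in most genes of GMP. There 7 of 8 tested were higher in Npm1 Flt3 and none lower, with a median of 1.90. mt-Co1 (chrM:5328-6872) was at 3470, 2640, 4590 and 4150 CPM in Npm1 Flt3 GMP and at 1050 and 899 CPM in Dnmt3a Flt3 GMP (1.88 ± 0.24, edgeR adjusted p = 0.00257). mt-Cytb (chrM:14145-15288) was at 2320, 1920, 2500 and 2640 CPM against 1030 and 731 CPM (1.37 ± 0.20), and mt-Nd1 at 1310, 886, 1820 and 1550 CPM against 519 and 346 CPM (1.65 ± 0.30). None of the 3 overlapped. mt-Nd5 (1.44 ± 0.19), mt-Nd4 (1.96 ± 0.27), mt-Nd2 (1.91 ± 0.33) and mt-Nd6 (2.11 ± 0.40) were called as well. The last is the one member on the other strand of the mitochondrial genome. mt-Nd3, at 0.189 to 0.718 CPM against 0.0517 and 0.0729 CPM, was not (2.80 ± 1.46). In LSK 3 of 8 were higher and none lower, with a median of 1.37. mt-Nd4 was at 731, 458, 194 and 542 CPM in Npm1 Flt3 LSK and at 128 and 130 CPM in Dnmt3a Flt3 LSK (1.91 ± 0.42, edgeR adjusted p = 0.0185), and mt-Co1 (1.55 ± 0.36) and mt-Nd6 (2.10 ± 0.52) were the others.

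Npm1 Flt3 LSK replicate 3 was the lowest of its group for the mitochondrial members, with 0.382% of counts in them against 0.889% to 1.08% in the other 3. It held 526 CPM of mt-Nd1, below the 795 and 667 CPM of the Dnmt3a Flt3 libraries. Without it 7 members were called, and none without Npm1 Flt3 LSK 1 or Dnmt3a Flt3 LSK 2 or 3. In GMP the count was 4 without Dnmt3a Flt3 GMP 3. The mitochondrial ribosomal RNAs mt-Rnr1 and mt-Rnr2, which are no members, were higher by 3.90 ± 0.70 and 3.11 ± 0.63 in LSK and by 3.27 ± 0.69 and 2.81 ± 0.57 in GMP. As shares of counts, mitochondrial members took 0.658% to 1.08% in Npm1 Flt3 GMP and 0.241% to 0.316% in Dnmt3a Flt3 GMP, and nuclear members took 1.48% to 1.85% and 1.45% to 1.55%. Genes of 9 dendritic cell markers moved with the genotype too. They summed to 26500 to 55300 CPM in Npm1 Flt3 GMP against 138 and 93.7 CPM in Dnmt3a Flt3 GMP replicates 1 and 2, with replicate 3 of like size, and to 7900 to 33700 CPM against 770 to 1110 CPM in LSK, contradictory libraries included. Summed GMP markers were 19600 to 51400 CPM in Npm1 Flt3 GMP and 48900 to 61700 CPM in the 3 Dnmt3a Flt3 GMP. The part of these cells in the mitochondrial values was not tested, and that of the code series cannot be told apart from the genotype. Which library kit served which of these samples is not given, so a part of the kit cannot be told apart either.

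**Figure D4:**
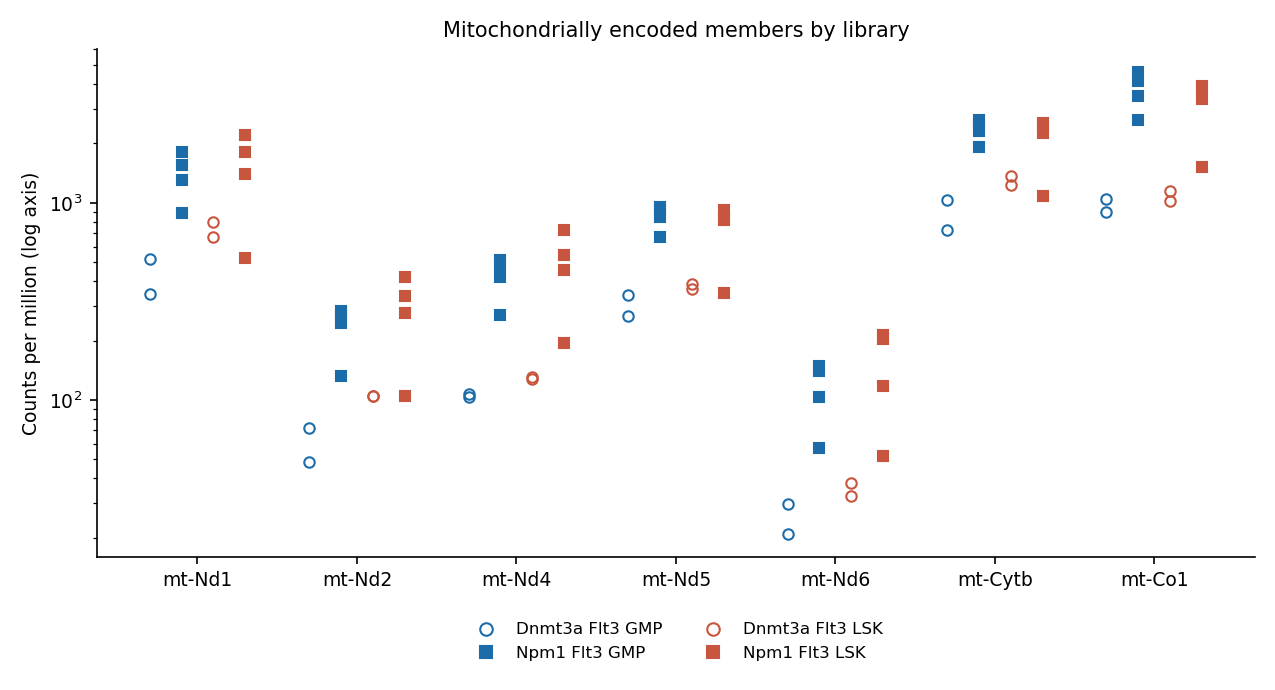
CPM (log axis) of the 7 mitochondrial members with the most counts, 1 symbol per library, in Dnmt3a Flt3 (open circles) and Npm1 Flt3 (filled squares) GMP (blue) and LSK (red); the 2 libraries with contradictory labels are not drawn. In GMP every Npm1 Flt3 library lies above both Dnmt3a Flt3 libraries for mt-Co1 (2640 to 4590 against 1050 and 899 CPM), and in LSK the lowest Npm1 Flt3 symbol is replicate 3.

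Within each of these genotypes few members were called between LSK and GMP. In Npm1 Flt3 mice 1 of 89 nuclear members was higher in LSK and none lower, where 2.35% of 21227 genes were higher and 2.27% lower. The median was 0.34 against 0.12 over all genes, and 8 had an unadjusted p under 0.05. It was Cox6a2, at 0.242, 0.887, 0.422 and 0 CPM in GMP and 17.6, 11.2, 18.6 and 17.4 CPM in LSK, without overlap (5.26 ± 0.98, edgeR adjusted p = 0.00637, and 0.0845 with the animal as a block). Cox4i2 was at 8.86, 8.21, 13.9 and 10 CPM in GMP and 25.9, 18.6, 22 and 35.2 CPM in LSK (1.16 ± 0.32, adjusted p = 0.0513 by edgeR, so not called). With library size as the only scaling 6 nuclear members were higher, and the share of higher calls moved from 50.9% to 73.3% and the median of all genes to 0.31. No mitochondrial member was called, with 0 at an unadjusted p under 0.05 by edgeR and 0 called by DESeq2. Cox6a2 was thus higher in LSK than in GMP in WT, in Flt3 and in Npm1 Flt3 mice, with the exceptions given for single libraries and times.

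In Dnmt3a Flt3 mice, with 2 libraries of each type, edgeR called 0 of 89 nuclear members (3 at an unadjusted p under 0.05) and DESeq2 called 0, where 1.87% of 21227 genes were called in either direction. The median was -0.19 against 0.11 over all genes. Cox6a2 was at 0.543 and 0.974 CPM in GMP and 0.125 and 0.107 CPM in LSK (-3.03 ± 1.30, edgeR adjusted p = 0.439), with the lower values in LSK, and Uqcrfs1 had a value of -2.16 ± 0.78 (0.280). None of 8 mitochondrial members was called (0 at an unadjusted p under 0.05 by edgeR, and 0 by DESeq2). Of all genes called, 31% were higher in LSK by edgeR, 48.5% by DESeq2 and 54.8% by library size alone, which moved the median of all genes to 0.44.

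The last comparison set TAM, which deletes the mutant Flt3 allele, against vehicle in Npm1 Flt3 Lin- HSPCs. No mice without the deletable allele were given TAM, so loss of the allele and the drug itself cannot be told apart. Nuclear members were lower after TAM almost throughout: 83 of 89 were lower and none higher, where 21.3% of 25269 genes were lower and 10.1% higher. The median was -2.05, against 0.56 over all genes. The lower members were 35 of 36 in complex I, all 4 assembly factors, all 4 of complex II, all 8 of complex III, cytochrome c, 14 of 18 in complex IV and 17 of 18 in ATP synthase. As shares of counts they took 1.94% to 2.06% after vehicle and 0.972% to 1.14% after TAM. The scaling sets the size of this change. By library size alone the higher share of all calls moved from 32.1% to 81.5%, the median of all genes from 0.56 to 1.64, and 59 nuclear members were lower and 1 higher, with a median of -0.84. With the titles' replicate numbers as a block, 85 nuclear members were called, though the sample codes do not link a TAM mouse to a vehicle mouse.

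Cox4i2, the isoform that was higher in Flt3 GMP, had the smallest p after TAM. It was at 23.2, 24.1 and 28.9 CPM after vehicle and 6.78, 7.87 and 5.65 CPM after TAM (-3.11 ± 0.42, edgeR adjusted p = 1.89e-06). Atp5o, a stalk subunit of ATP synthase, was at 401, 367 and 405 CPM after vehicle and 177, 151 and 143 CPM after TAM (-2.53 ± 0.37). Ndufa4 was at 189, 168 and 223 CPM and 91.4, 72.2 and 69.1 CPM (-2.53 ± 0.37). None of the 3 overlapped, nor did Ndufc2 of complex I, at 146, 116 and 144 CPM against 61.7, 50.1 and 53.3 CPM (-2.50 ± 0.37), or Atp5g1 (-2.53 ± 0.38). Atp5b was at 3020, 2970 and 2630 CPM against 1260, 1110 and 1340 CPM (-2.46 ± 0.38), and Cycs at 166, 202 and 200 CPM against 105, 73.7 and 108 CPM (-2.25 ± 0.38). Cox4i1, at 670, 590 and 631 CPM after vehicle, was at 387, 414 and 292 CPM after TAM. In raw CPM, then, these genes stood at lower levels after TAM in every library, with smaller ratios than the fitted values give. Cox5a was not called, at 29.9, 25.8 and 17.9 CPM against 0.797, 16.4 and 5.08 CPM (-2.82 ± 1.14, adjusted p = 0.117 by edgeR), nor was Cox6a2, at 2.93, 1.83 and 2.35 CPM against 5.51, 0.432 and 1.19 CPM (-1.27).

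The fitted changes of mitochondrial members after TAM were smaller than the nuclear median. Of 8 tested, 4 were lower and none higher, with a median of -0.97: mt-Cytb (-1.43 ± 0.39, edgeR adjusted p = 0.00518), mt-Nd1 (-1.35 ± 0.40, 0.00968), mt-Nd5 (-1.19 ± 0.38, 0.0171) and mt-Co1 (-1.06 ± 0.38, 0.0336). In raw CPM the groups overlapped. mt-Nd1 was at 2520, 3920 and 2220 CPM after vehicle and 2730, 2790 and 2900 CPM after TAM, and mt-Cytb at 3810, 5570 and 3500 CPM and 4050, 3890 and 3770 CPM. mt-Nd4, at 268, 351 and 252 CPM and 361, 365 and 439 CPM, was higher in raw CPM after TAM without overlap, while its fitted value was -0.86 (edgeR adjusted p = 0.0775). Without TMM no mitochondrial member was called, the median was 0.31, and mt-Co1 and mt-Nd5 turned to 0.22 and 0.08. mt-Cytb (-0.14) and mt-Nd1 (-0.04) stayed below 0, and mt-Nd2, mt-Nd3, mt-Nd4 and mt-Nd6 turned positive as well (0.40 to 0.52), so the direction of 6 of the 8 depended on the scaling. Their share of counts was 1.04% to 1.68% after vehicle and 1.32% to 1.37% after TAM. The ratio of mitochondrial to nuclear member counts, which no scaling changes, was 0.51 to 0.864 after vehicle and 1.2 to 1.36 after TAM, without overlap. The count of called mitochondrial members was 1 without TAM replicate 1 or 3, 2 without vehicle replicate 2 and 7 without vehicle replicate 1.

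**Figure D5:**
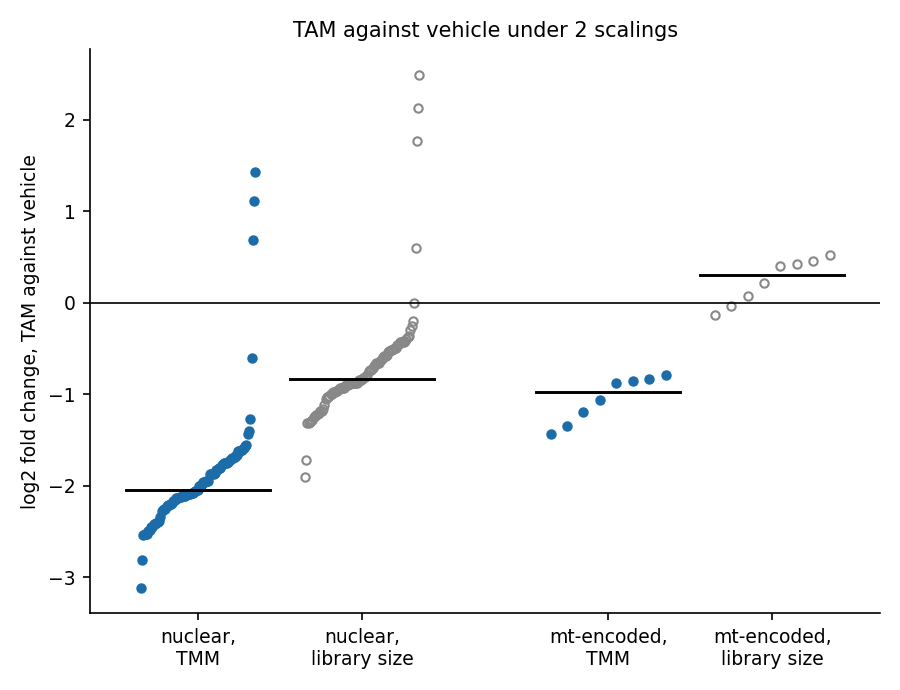
Log2 fold change of each tested member, TAM against vehicle, for nuclear and mitochondrial members under the main scaling (TMM, filled blue) and by library size alone (open grey), with the median as a line. The nuclear median is -2.05 and -0.84 and the mitochondrial median -0.97 and 0.31, so the nuclear median is the lower under both.

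Other mitochondrial lists moved with the nuclear members after TAM. Mitochondrial ribosomal proteins were lower in 69 of 75 genes, the citric acid cycle and pyruvate dehydrogenase list in 17 of 17, assembly factors in 25 of 33 and mitochondrial DNA expression in 16 of 20, with none higher in these lists. Without TMM these counts were 50, 14, 6 and 7 lower and 1, 0, 3 and 1 higher. Idh2, the mitochondrial isocitrate dehydrogenase, had a value of -3.74 ± 0.48 and Idh3a of -2.73. Of 9 regulators 4 were lower and 1 higher, with Myc at -2.94 ± 0.41, Gabpb1 at -1.69 and Ppargc1a, the coactivator of mitochondrial biogenesis, at 1.85 ± 0.46. For all these lists the share over all genes tested was 21.3% lower and 10.1% higher. Members whose promoter holds at least 1 of the 3 words were lower in 40 of 40 cases (median -1.98), and those with none in 31 of 34 (median -2.1). Markers of other cells were higher after TAM: 9 dendritic genes summed to 31700 to 39900 CPM against 2620 to 5490 CPM, 8 erythroid genes to 1030 to 1570 CPM against 2.75 to 11.0 CPM, 8 macrophage genes to 816 to 1340 CPM against 85.6 to 114 CPM and 8 late neutrophil genes to 1970 to 3210 CPM against 208 to 250 CPM. The 8 GMP genes were lower, at 1200 to 2230 CPM against 5780 to 7040 CPM. TAM libraries were also shallower, at 15053592 to 22654054 counts against 40865360 to 103446979, and the part of depth and of these cells in the fall was not tested.

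Over the 29 libraries of the first table, the genes outside the list whose level ranked most like the summed nuclear members were Rpl26 (Spearman rho 0.884), Rpl38 (0.874), Tomm7 (0.86), Romo1 (0.858) and Dpy30 (0.855). For the summed mitochondrial members they were Rpl4 (0.758), Eif3h (0.737), Rps2 (0.734), Tpt1 (0.731) and Rpl9 (0.725). Libraries of a group share genotype and cell type, so these are descriptions. Among nuclear members, Atp5l2 and Atp5l share 73.4% and 68.5% of their 50-letter words with other genes, including each other, and 19 more share 10% to 50%, so counts of these 21 may be divided between copies.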

How the data were processed

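Bulk RNA-seq of sorted mouse blood progenitors was analysed from 2 tables of read counts per gene deposited by the authors, 30 libraries in the first and 20 in the second. STAR, mm10 and featureCounts are named in the submitters' processing notes, with no versions or settings. No column belonged to another series (0 such columns). The unit of the deposited files is raw counts. Depth limits the first table, where single low genes rest on a few counts.

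Groups were taken from the sample titles. Each comparison was fitted in edgeR 4.0.16 (R 4.3.3) within 1 table, with genes filtered by filterByExpr (minimum count 10), TMM scaling and robust quasi-likelihood tests, and Benjamini-Hochberg adjustment across every gene in the fit. Standard errors are the absolute log2 fold change divided by the square root of F. CPM values are counts scaled to a library total of 1000000. Called means an adjusted p under 0.05. Flt3 against WT is the mean of 4 time groups against WT. The near-empty library (1) and the libraries with contradictory labels (2) were left out. Intervals and ratios of summed counts cover counting error only. Over 52 pairs of replicates the counts differed by a chi-square of at least 2.26 per degree of freedom, more than sampling noise. The labels name separate sample codes for replicates. The fit was tested on simulated counts for 3 comparisons (Flt3 against WT GMP, Npm1 against Dnmt3a LSK, TAM against vehicle). Few genes were changed there, for TAM 67 by 2-fold among 24181. In the data 21.3% of genes were lower and 10.1% higher after TAM. With few changed genes the adjustment is stricter, so the recoveries below do not give the power of the tests on the data. For Npm1 against Dnmt3a LSK, 0% of 2-fold and 50.8% of 4-fold changes were recovered, and for TAM 2.99% and 32.3%. For Flt3 against WT GMP, 43.3% of 1.5-fold and 80.6% of 2-fold changes were recovered. A gene not called may still have changed, and recovery in these simulations was lower for the comparisons of the second table.

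The members and the gene lists were chosen with earlier results of these data known. Of 159 list genes, 135 were found by their own symbol, 20 by a RefSeq synonym and 4 were not found. The text names all mitochondrial members, up to 5 called nuclear members per direction with the smallest p, fixed isoform and core-subunit sets, up to 3 genes per list, and up to 5 most similar genes; genes named beyond these were chosen after their values were seen.

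Alternatives were DESeq2 1.42.0, its median-ratio factors in edgeR, library size alone, no filter, a filter at 5 CPM, mt- genes left out, replicate blocks, other library sets, and each library left out in turn. LSK and GMP libraries with 1 sample code were taken as pairs of 1 animal (deviations correlated at r = -0.0552 to 0.209 in 14 pairs and -0.0164 to 0.314 in 4). Title numbers were used as a block for TAM and vehicle (r = 0.111 to 0.304 in 3 pairs of like number). Pairs of unlike number were not compared, so a pairing is not shown.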

Additional observations from a re-analysis of the deposited data

Results flagged for a closer look

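In groups of 4 libraries, 102 nuclear and mitochondrial levels of named genes were examined for a library apart from the rest, and 10 were found; chance gives about 1 in 20 such groups. In Npm1 Flt3 GMP these were Atp5g2 in replicate 2 (35.7 CPM) and Sdhd in replicate 3 (479 CPM). In Npm1 Flt3 LSK replicate 4 stood highest for Ndufa4 (345 CPM), Ndufb5 (228), Ndufc2 (300) and Cox6b2 (35.9). Replicate 1 stood apart for Atp5a1 (1300 CPM, lowest) and Cox5a (83.4, highest), replicate 2 for Cox6a2 (11.2, lowest) and replicate 3 for mt-Nd3 (0.112, lowest).

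The change from WT to Flt3 differed between LSK and GMP, by the interaction test, for 21 named genes. On the log2 scale (LSK change minus GMP change) the values were Cox7b 1.03, Cox7a2 0.95, Uqcrq 0.96, Ndufb5 0.98, Cycs 1.05, Cox4i1 0.92, Cox6b1 0.71, Atp5g1 0.71, Atp5g3 0.77, Cox8a 0.61 and Uqcrc1 0.66. The rest were Atp5b 0.60, Sdhb 0.59, Cox5b 0.67, Ndufa4 0.58, Sdhd 0.60, Cox6a1 0.53, Ndufv1 0.50, Cox5a 0.86, Uqcrfs1 0.44 and mt-Nd1 0.73. All are positive.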

How the results depend on the processing

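Of 3092 values of named, called genes under the alternatives, 2780 kept their call and direction, 309 lost the call and 3 turned, all by library size alone: Atp5a1 in WT LSK against GMP (0.0692), and mt-Co1 (0.217) and mt-Nd5 (0.0755) after TAM. Counts of called nuclear members in Flt3 against WT GMP and after TAM stayed within 1.5 times under every alternative run. By library size alone, nuclear calls were 3 (Flt3 against WT LSK), 44 (WT LSK against GMP), 4 (Flt3 LSK against GMP), 26 (interaction), 14 and 0 (slopes in GMP and LSK), 17 (Npm1 against Dnmt3a LSK) and 6 (Npm1 LSK against GMP). Mitochondrial calls were then 0 in WT LSK against GMP, the interaction and TAM, and 1 for each slope. By DESeq2 they were 1 in Flt3 LSK against GMP and 2 for the interaction, and nuclear calls were 35 and 15 for Npm1 against Dnmt3a LSK and GMP and 3 for Npm1 LSK against GMP. Median-ratio factors gave 10 for Npm1 against Dnmt3a LSK and 2 for Npm1 LSK against GMP. Without a filter, mitochondrial calls were 2 for the interaction, 1 for the GMP slope and 5 for Npm1 against Dnmt3a LSK, with 41 nuclear calls there. At 5 CPM, nuclear calls were 37, 18 and 2 for Npm1 against Dnmt3a LSK, GMP and Npm1 LSK against GMP, and TAM had 2 mitochondrial calls. With mt- genes left out Npm1 LSK against GMP had 2. The causes were not tested.

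With the 4-week Flt3 mice alone, nuclear calls were 3 in LSK and 33 for the interaction, with 0 mitochondrial. Without 2 weeks both slopes had 0 nuclear calls. Without the 3 8-week libraries richer in mitochondrial counts, chosen after seeing the data, Flt3 LSK against GMP had 12 nuclear calls, the interaction 2 and the GMP slope 1 mitochondrial. With the near-empty library Flt3 LSK against GMP had 10. With contradictory libraries kept, nuclear calls were 41 (LSK, and 5 mitochondrial), 35 (GMP) and 2 (Npm1 LSK against GMP).

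With the replicate block by animal, mitochondrial calls were 1 for Flt3 LSK against GMP and 3 for the interaction, and nuclear calls 0 for Npm1 LSK against GMP. With the title number as a block, TAM had 85 nuclear and 6 mitochondrial calls, the slopes 1 (GMP) and 0 (LSK) nuclear, and Npm1 against Dnmt3a 21 (LSK) and 2 (GMP). Deviations of Flt3 and WT libraries with like title numbers correlated at r = -0.146 to 0.155 in 26 GMP pairs and -0.202 to 0.0776 in 30 LSK pairs. No other count of calls moved by over 1.5 times under a block.

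Leaving out each library in turn gave nuclear calls of 50 to 69 (Flt3 against WT GMP), 2 to 8 (LSK), 64 to 72 (WT LSK against GMP), 12 to 21 (Flt3 LSK against GMP), 42 to 61 (interaction), 0 to 4 and 0 to 1 (slopes in GMP and LSK), 1 to 26 and 0 to 22 (Npm1 against Dnmt3a LSK and GMP), 1 to 2 (Npm1 LSK against GMP), 0 to 0 (Dnmt3a) and 80 to 84 (TAM). Mitochondrial calls were 3 to 6, 0 to 0, 1 to 2, 0 to 1, 0 to 2, 0 to 1, 0 to 1, 0 to 7, 4 to 7, 0 to 0, 0 to 0 and 1 to 7 in the same order.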
